A study of Mus musculus with 6 samples.

Results

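Potassium channel genes were examined in gastrocnemius, a calf muscle, of mice with and without the kinase TAK1 in their muscle. The members were all genes whose symbol begins with Kcn followed by a subfamily letter code and a number, on a probe set (a group of array probes read as one value) that carries that symbol alone. This gave 89 of 22180 genes, with 1 probe set kept for each gene, the one with the highest mean over all arrays. The 89 are 26 voltage-gated (Kv) pore genes, 10 silent Kv modifiers, 8 calcium- or sodium-activated pore genes, 14 inward rectifiers, 13 two-pore-domain channels, 16 auxiliary subunits and 2 antisense transcripts (Kcnq1ot1 and Kcnd3os), which encode no channel.

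Each of the 6 arrays held total RNA of 1 mouse. Per the labels, the 3 control mice carried a floxed TAK1 gene, and the 3 knockout mice, from the same litters, lacked TAK1 specifically in skeletal muscle, 3 weeks after its deletion. The Cre driver, strain and age were not stated in the labels. The deletion is limited to skeletal muscle, while each array reads the whole tissue. Differences are given as knockout minus control on the log2 scale, with the standard error of limma's moderated fit, and a gene was called at an adjusted p under 0.05 over all genes.

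Potassium channels set the resting potential of a muscle fibre and end its action potential. Inward rectifiers and ATP-sensitive channels hold the fibre near rest, voltage-gated channels repolarise it, and BK and SK channels open when cytosolic calcium rises. SK channels of the Kcnn3 type are known to be scarce in innervated fibres and to appear in the fibre membrane after denervation, along with extra acetylcholine receptors.

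Map3k7, which encodes TAK1, had a level of 8.40 ± 0.07 in the 3 controls and 8.22 ± 0.06 in the 3 knockouts (mean ± SD), without overlap but without a call (limma, adjusted p = 0.686). The labels do not say which part of the gene was deleted, so the probe set need not report the deletion. Array medians ran from 5.78 to 5.84. All 8 markers of skeletal muscle fibres lay above background, with mean levels of 13.6 to 13.7 in controls and 13.6 in all knockouts. Several lay near the array maxima of 14.3 (Acta1 and Myh4 at 14.1), so equal values need not mean equal fibre content. Background was set from 1394 genes of olfactory and vomeronasal receptors, at the 95th percentile of their mean levels (5.85 on the log2 scale), and 12601 genes (56.8%) exceeded it.

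The promoters of 4 genes are shown because their transcripts stood apart most clearly among genes with a single annotated start: Kcnn3 and Kcnma1 were higher and Kcnc4 lower in knockout muscle, and Chrna1, the acetylcholine receptor alpha subunit, was the called gene with which Kcnn3 is compared. Each window runs from 250 bases before to 50 bases after the start in RefSeq (GRCm38.p6), on the strand of the gene. They lie at chr3:89519914-89520213 (plus) for Kcnn3, chr14:24004156-24004455 (minus) for Kcnma1, chr3:107458849-107459148 (minus) for Kcnc4 and chr2:73580289-73580588 (minus) for Chrna1. Capitals mark the letters CANNTG, the E-box that myogenic transcription factors can bind, which reads as the same pattern on both strands.
Kcnn3: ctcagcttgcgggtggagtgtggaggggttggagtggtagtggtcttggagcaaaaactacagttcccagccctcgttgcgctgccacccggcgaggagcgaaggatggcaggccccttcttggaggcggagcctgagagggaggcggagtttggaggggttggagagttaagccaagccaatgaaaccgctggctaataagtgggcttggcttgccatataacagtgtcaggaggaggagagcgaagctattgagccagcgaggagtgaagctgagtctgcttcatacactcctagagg
Kcnma1: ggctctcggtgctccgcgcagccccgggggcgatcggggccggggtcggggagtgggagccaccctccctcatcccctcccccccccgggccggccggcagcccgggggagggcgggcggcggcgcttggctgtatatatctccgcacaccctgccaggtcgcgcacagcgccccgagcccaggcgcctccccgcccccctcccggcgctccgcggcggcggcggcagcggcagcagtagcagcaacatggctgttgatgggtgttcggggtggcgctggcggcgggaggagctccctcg
Kcnc4: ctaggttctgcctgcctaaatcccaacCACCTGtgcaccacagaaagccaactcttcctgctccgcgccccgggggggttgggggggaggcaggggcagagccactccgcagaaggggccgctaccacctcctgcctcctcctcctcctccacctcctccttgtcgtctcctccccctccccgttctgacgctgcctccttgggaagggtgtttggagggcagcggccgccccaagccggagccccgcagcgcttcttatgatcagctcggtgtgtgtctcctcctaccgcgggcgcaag
Chrna1: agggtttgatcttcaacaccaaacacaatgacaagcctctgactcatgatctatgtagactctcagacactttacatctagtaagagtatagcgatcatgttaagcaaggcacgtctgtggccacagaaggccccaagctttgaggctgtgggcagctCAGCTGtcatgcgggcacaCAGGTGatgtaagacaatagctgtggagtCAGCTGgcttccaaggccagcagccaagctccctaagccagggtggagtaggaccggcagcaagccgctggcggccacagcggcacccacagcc

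The Kcnn3 and Kcnma1 windows held 0 E-boxes, the Kcnc4 window 1, whose first base was at −223 from the start, and the Chrna1 window 3, at −92, −73 and −44. The promoter of Kcnma1 was the richest in G and C of the 4, at 78%, against 57.7% for Kcnn3. Of the 89 members, 69 had a window in the RefSeq table (94 windows). An E-box was found in 73.4% of these and in 72.3% of all 32851 windows, so the members' share was near that of promoters in general. The narrower form CAGCTG, a subset of the E-boxes, was in 24.5% of member windows and 16.3% of all. The AP-1 motif TGANTCA was in 4.26% and 7.81%. The kappa B motif GGGRNNYYCC (R is A or G, Y is C or T), searched on both strands, was in 11.7% and 8.46%. These matches are letters only and show no binding.

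Many potassium channel genes were not above background in this tissue. Of the 89, 39 exceeded 5.85 and 50 did not, and the 39 include 13 of 26 Kv pore genes, 4 of 10 silent modifiers, 6 of 8 calcium- or sodium-activated genes, 6 of 14 inward rectifiers, 6 of 13 two-pore channels, 3 of 16 auxiliary subunits and Kcnq1ot1. At the stricter 99th percentile of the receptor genes (6.82), 16 remained: Kcna4, Kcna5, Kcna7, Kcnc1, Kcnc4, Kcnq5, Kcng4, Kcnj2, Kcnj8, Kcnj11, Kcnj12, Kcnk6, Kcnma1, Kcnn1, Kcnn3 and Kcnq1ot1. At the laxer 90th percentile (5.34), 74 exceeded it. In the auxiliary class, 4 of 4 BK beta subunits (Kcnmb) and 3 of 4 KChIP genes (Kcnip) lay below 5.85, as did 7 of 8 Kcnh genes. A gene below this level is only bounded, because the array's background compresses its differences.

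Over all genes, 0 of the 89 members were called, against 21 of 22180 genes, 0.0947% (limma). The count over all genes was 2 to 11 with 1 array left out, 36 with a robust prior that follows intensity and 45 when dim genes were left out of the fit. At an unadjusted p under 0.05, 3 members were higher in knockout muscle (Kcnn3, Kcnma1 and Kcnt1) and 7 were lower (Kcnab1, Kcnk2, Kcnc4, Kcnq5, Kcnj11, Kcnj8 and Kcnk10). Among all genes 3.93% were higher and 4.12% lower by the same rule. In either direction it was 8.04% of all genes, against 11.2% of members (10 of 89). The groups did not overlap in 15 members, 5 higher and 10 lower, against 13.4% of all genes. The median difference of the 89 was 0.02, with 50 higher and 39 lower, and that of all genes was −0.0003. The 39 members above background had a median of 0.04, and all genes above background had −0.01. The members' median was 0.0039 without control 1, 0.013 without knockout 2 and 0.0002 with the mean over probe sets. The largest differences were −1.10 (Kcnab1) and 0.71 (Kcnn3), and the quartiles of the 89 were −0.07 and 0.10.

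**Figure D1:**
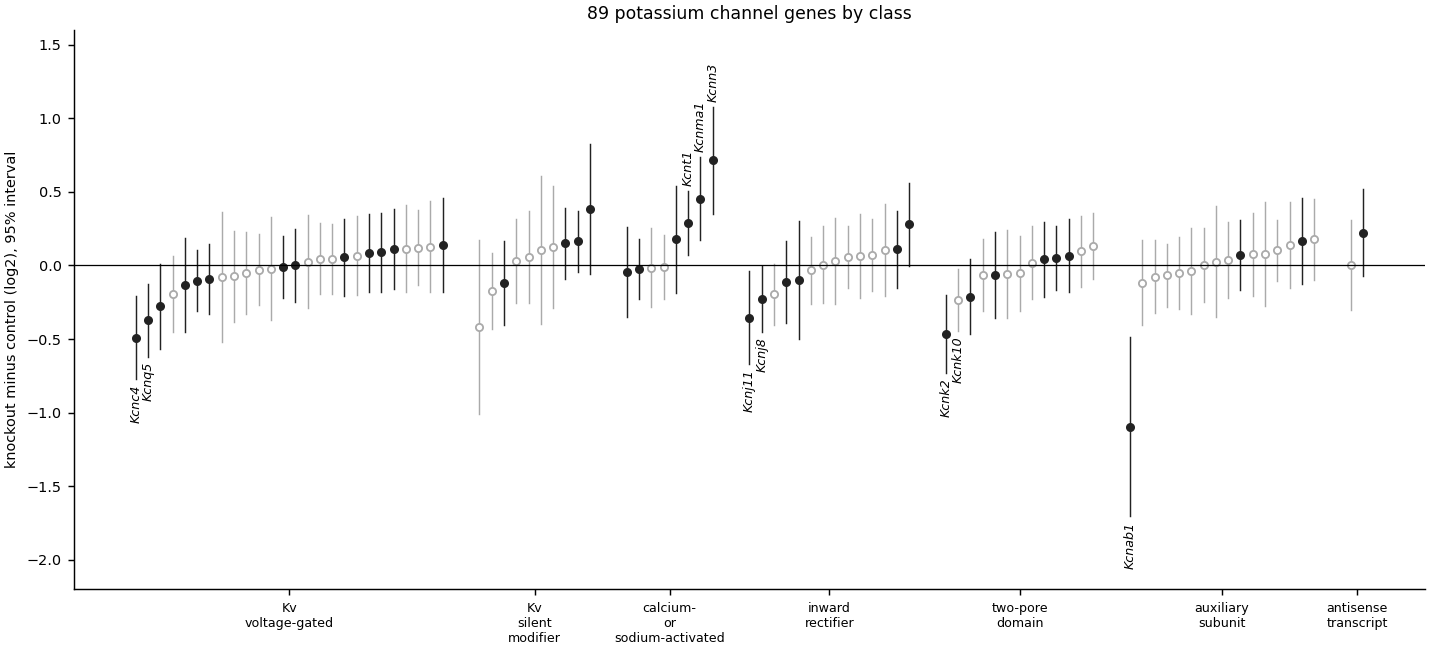
Knockout minus control on the log2 scale for the 89 genes (points) with the 95% interval of limma's fit (lines), grouped by channel class; filled black points lie above background and open grey ones below. The named genes have an unadjusted p under 0.05; Kcnn3, Kcnma1 and Kcnt1 lie above 0 in the calcium- or sodium-activated class, and Kcnab1 lies lowest.

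The calcium- and sodium-activated class held the 3 members that were higher at an unadjusted p under 0.05 (3.93% of all genes were). Without that cut, 50 of the 89 members, in several classes, had a higher mean in knockouts. Kcnn3 encodes the small-conductance channel SK3. Its level was 6.48, 6.49 and 6.57 in controls 1 to 3 and 7.32, 7.51 and 6.86 in knockouts 1 to 3. The 3 knockout values lay above all control values, and knockout 3 was the lowest of them. The difference was 0.71 (SE 0.16, 95% interval 0.35 to 1.08, 1.64-fold), with an unadjusted p of 0.00169 and an adjusted p of 0.233 (limma), so Kcnn3 was not called over all genes. Without knockout 3 the difference was 0.90 and the adjusted p 0.0620, and without knockout 2 they were 0.58 and 0.548.

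The related genes of the family gave smaller differences. Kcnn1 (SK1) lay at 7.89, 7.83 and 7.88 in controls and at 7.89, 7.82 and 7.82 in knockouts, a difference of −0.02 (95% interval −0.23 to 0.18). Kcnn2 (SK2) lay at 6.23, 6.83 and 6.42 in controls and at 6.78, 6.72 and 6.51 in knockouts, with overlapping groups and a difference of 0.18 (interval −0.19 to 0.54) that was 0.04 without control 1 and 0.35 without control 2. Kcnn4, the intermediate-conductance channel of blood and endothelial cells, ran from 5.70 to 6.18 in controls and 5.81 to 6.004 in knockouts, close to background. Set against the mean of these 3 genes on each array, Kcnn3 was higher in knockouts by 0.68 and the groups did not overlap. The exact two-sided permutation test gave p = 0.1, the smallest that 3 against 3 arrays allow. Groups without overlap must give this value, and the contrast was chosen after the values were seen.

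Kcnma1 encodes the pore of the BK channel, which opens with both calcium and depolarisation. It lay at 9.77, 10.14 and 9.77 in controls and 10.42, 10.35 and 10.28 in knockouts. All knockouts lay above all controls, of which control 2 was nearest. The difference was 0.46 (SE 0.12, 1.37-fold, adjusted p = 0.354, limma). A further probe set of the gene lay below background at 5.29 and 5.34, with a difference of 0.05, and with the mean of both probe sets the difference was 0.25.

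The partner subunits of BK channels gave other values. Lrrc38, a leucine-rich repeat gamma subunit that eases the opening of BK channels, was lower by 0.42 in knockouts, at 6.98, 7.07 and 7.11 against 6.82, 6.70 and 6.40 (unadjusted p = 0.00944, adjusted p = 0.425, limma). Lrrc52, another gamma subunit, had a difference of 0.16 with control 2 at 7.22 far above controls 1 and 3 at 6.14 and 6.22. The 4 beta subunits, Kcnmb1 to Kcnmb4, had differences of −0.04 to 0.10, all below background.

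Kcnt1, the sodium-activated channel Slack, lay at 5.84, 5.92 and 5.76 in controls, around background, and at 6.17, 6.14 and 6.06 in knockouts. It was at least 1.21-fold higher, since the control mean was below 5.85 (measured difference 0.29, SE 0.10, unadjusted p = 0.0158, adjusted p = 0.469, limma). Kcnt2 and the sperm channel Kcnu1 lay below background, with differences of −0.01 for each.

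**Figure D2:**
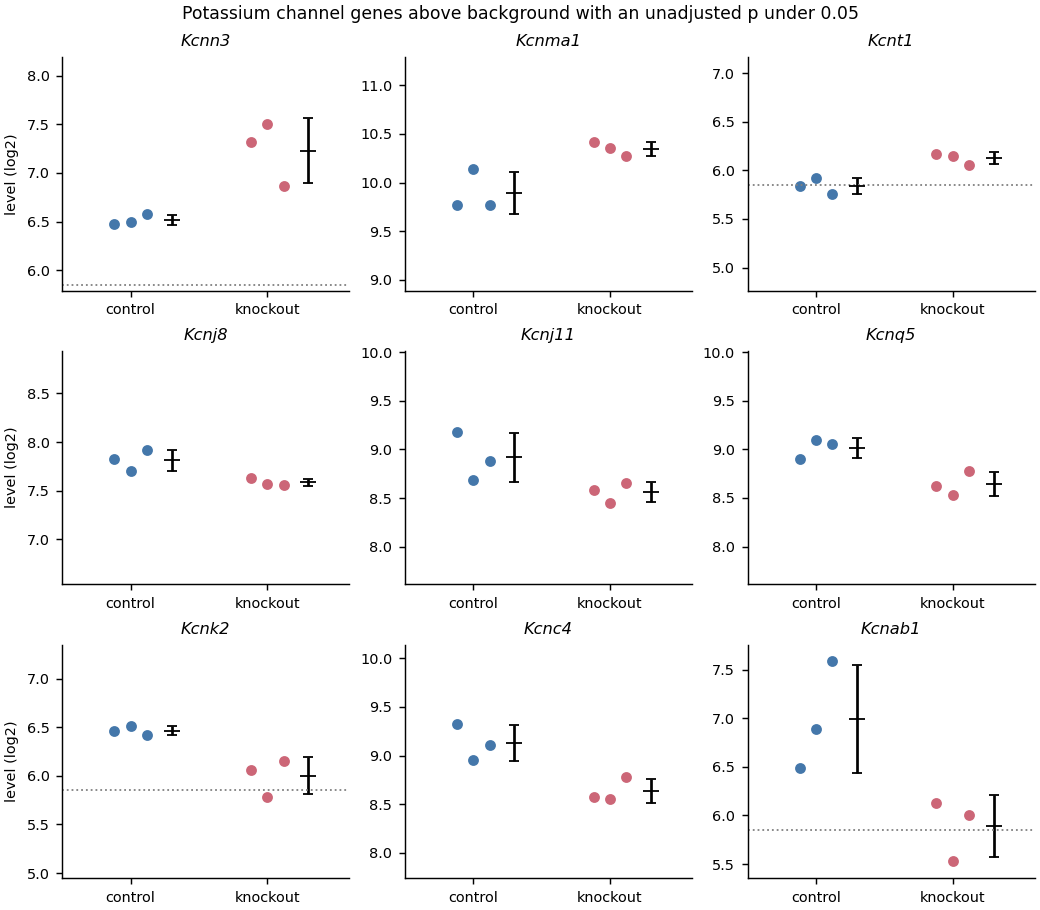
Log2 levels of the 9 members above background with an unadjusted p under 0.05, on 3 control (blue) and 3 knockout (red) arrays; black bars give the mean and SD, and the dotted line is background (5.85). Each panel spans the same range of log2 units. In all 9 the groups do not overlap, which their choice by p favours (13.4% of all genes, chosen or not).

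Among voltage-gated genes, Kcnc4 and Kcnq5 were lower at an unadjusted p under 0.05 (4.12% of all genes were). Kcnc4 encodes Kv3.4, a fast-inactivating channel of skeletal muscle. It lay at 9.33, 8.95 and 9.11 in controls and 8.58, 8.56 and 8.78 in knockouts, all knockouts below all controls. The difference was −0.49 (SE 0.12, 95% interval −0.77 to −0.21, adjusted p = 0.301, limma), 1.41-fold. Kcne3, its small partner subunit in muscle, lay below background at 5.30 and 5.37.

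Kcnq5 encodes Kv7.5, a slowly activating channel of the M-current family. Its level was 8.90, 9.10 and 9.05 in controls and 8.62, 8.53 and 8.78 in knockouts, without overlap. The difference was −0.37 (SE 0.11, adjusted p = 0.404, limma). A further probe set lay below background with a difference of 0.12, and the mean of both probe sets gave −0.12.

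The other Kv genes of muscle differed less. Kcna7 (Kv1.7), a channel of muscle and heart, lay at 8.09, 8.24 and 8.32 in controls and 7.87, 8.16 and 7.78 in knockouts, with a difference of −0.28 (unadjusted p = 0.0561). Here knockout 2 overlapped the controls. Kcnc1 (Kv3.1) was lower by 0.10 with no overlap between groups (unadjusted p = 0.286). Kcna4 (Kv1.4) ran from 10.82 to 11.19 in controls and 11.04 to 11.13 in knockouts, and Kcna5 (Kv1.5) from 7.16 to 7.27 and from 7.12 to 7.405. Their differences were 0.08 and 0.0002. In all, 2 of 26 Kv pore genes were lower at an unadjusted p under 0.05, 0 were higher and 24 did not pass. Among all genes 4.12% were lower and 3.93% higher by that rule. The median of the 26 was −0.01. Of the silent modifiers, which alter Kv2 channels and make no current alone, 0 of 10 passed. Kcng4 had the largest difference among those above background, 0.38 (unadjusted p = 0.0800), at 6.71, 7.21 and 7.08 against 7.69, 7.47 and 7.002.

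Kcnab1 had the largest difference of all 89 members. It encodes the beta-1 subunit of Kv1 channels, which speeds their inactivation. Its level was 6.49, 6.89 and 7.59 in controls and 6.13, 5.53 and 6.01 in knockouts. Every knockout lay below every control, control 3 was the highest and knockout 2 the lowest. The difference was −1.10 (SE 0.27, 95% interval −1.71 to −0.49, 2.14-fold, unadjusted p = 0.00292, adjusted p = 0.280, limma). Without control 3 it was −0.80. The knockout mean of 5.89 lay just above background, so background limits the size of this difference. Kcnab2, encoding beta-2, lay below background at 5.77 and 5.65, and of the other auxiliary subunits 0 passed an unadjusted p of 0.05.

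Among the 14 inward rectifiers 2 were lower at an unadjusted p under 0.05, against 4.12% of all genes. They are both pore genes of ATP-sensitive channels, and they passed in 10 (Kcnj11) and 7 (Kcnj8) of 14 alternatives as well. Kcnj11 encodes Kir6.2, the pore of the ATP-sensitive channel of muscle fibres. It lay at 9.18, 8.69 and 8.89 in controls and 8.58, 8.45 and 8.66 in knockouts, with control 2 just above knockout 3. The difference was −0.36 (SE 0.14, unadjusted p = 0.0312, adjusted p = 0.560, limma), and without control 1 it was −0.22 (unadjusted p = 0.110). Kcnj8, encoding Kir6.1, the ATP-sensitive pore of vascular smooth muscle and pericytes, lay at 7.82, 7.70 and 7.91 against 7.63, 7.57 and 7.56. Its difference was −0.23 (SE 0.10, unadjusted p = 0.0481, adjusted p = 0.619, limma), and it was −0.17 without control 3 (unadjusted p = 0.154) and −0.21 with centred arrays (unadjusted p = 0.0678). The groups did not overlap in either gene.

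The sulfonylurea receptors that surround these pores gave overlapping groups. Abcc9 (SUR2) was at 11.90, 11.64 and 11.81 in controls and 11.75, 11.49 and 11.69 in knockouts, a difference of −0.14 (95% interval −0.41 to 0.12). Abcc8 (SUR1) had a difference of −0.28 (interval −0.64 to 0.08), with control 1 at 7.05 above controls 2 and 3 at 6.50 and 6.54. Of 8 smooth muscle and pericyte markers, 7 lay above background and 0 passed an unadjusted p of 0.05, and their mean level was 8.18 to 8.55 in controls and 8.21 to 8.41 in knockouts. In whole tissue, fewer cells of a type and less RNA per cell cannot be told apart.

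Kcnj2 encodes Kir2.1, the classical inward rectifier that stabilises the resting potential. It lay at 8.92, 8.92 and 9.12 in controls and 9.06, 9.29 and 9.44 in knockouts, with knockout 1 below control 3. The difference was 0.28 (SE 0.12, 95% interval −0.002 to 0.56, unadjusted p = 0.0511, adjusted p = 0.622, limma). Kcnj12 (Kir2.2) ran from 7.13 to 7.63 in controls and 7.10 to 7.65 in knockouts, with a difference of −0.10. The other 10 Kcnj genes did not pass an unadjusted p of 0.05, and 8 of the 14 lay below background.

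**Figure D3:**
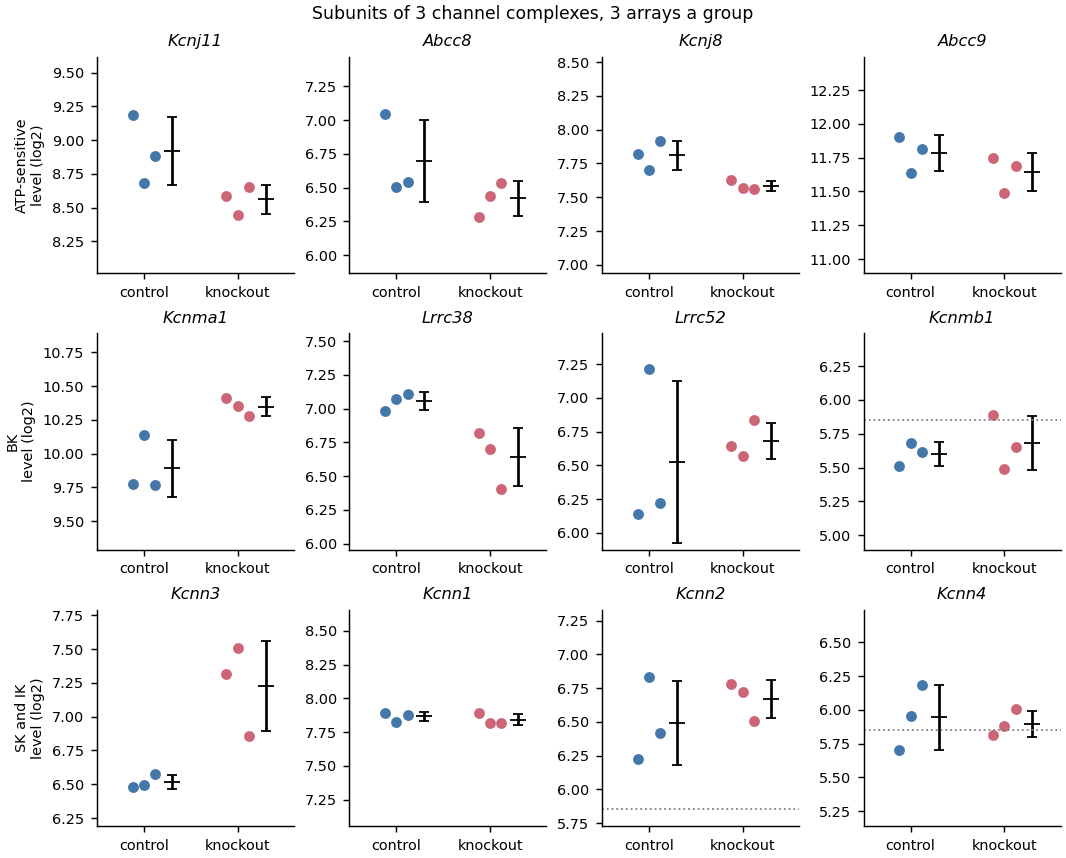
Log2 levels of ATP-sensitive subunits (top), BK subunits (middle) and SK or IK channels (bottom) on 3 control (blue) and 3 knockout (red) arrays, with the mean and SD in black and background (5.85) dotted where in range. Kcnj11 and Kcnj8 lie lower without overlap while Abcc8 and Abcc9 overlap; Kcnma1 lies higher and Lrrc38 lower; Kcnn3 lies higher while Kcnn1, Kcnn2 and Kcnn4 overlap.

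Two-pore-domain channels carry background leak currents. Kcnk2 encodes TREK-1, which responds to stretch and lipids. It lay at 6.46, 6.51 and 6.42 in controls and 6.06, 5.78 and 6.15 in knockouts, all knockouts below all controls and knockout 2 below background. The difference was −0.47 (SE 0.12, 1.38-fold, unadjusted p = 0.00343, adjusted p = 0.294, limma). Its close relative Kcnk10 (TREK-2) had a difference of −0.23 with both means, 5.84 and 5.61, below background, so no fold is given. Kcnk6 had −0.21 (unadjusted p = 0.0946, limma). Of the 13 genes 2 were lower at an unadjusted p under 0.05, against 4.12% of all genes, and 11 did not pass.

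Markers of other cell types moved unevenly beside these differences. Tenocyte markers were lower at an unadjusted p under 0.05 in 4 of 6, against 4.12% of all genes. Their mean levels were 7.45 to 8.17 in controls and 6.71 to 7.60 in knockouts. Of those 4, Mkx lay below background, and only Fmod had groups that did not overlap. The part of tenocytes in the lower levels of Kcnk2, Kcnab1 and the others was not tested. Endothelial, Schwann cell, macrophage, T cell and fibro-adipogenic markers had 0 such genes in either direction, and satellite cell markers 1 lower of 5 (Chrdl2, −0.40). All 6 measured T cell markers lay below background, as did 3 of 5 Schwann cell and nerve markers. Among fibre markers, Myh1 (fast type IIx myosin) was lower by 0.49 (unadjusted p = 0.00839, adjusted p = 0.418, limma).

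Kcnn3 can be set beside other genes of the denervation response, which were listed with earlier results of these arrays known. Of 17 listed, 16 were measured, and 2 rose over all genes, Chrna1 and the calcium pump inhibitor Sln (adjusted p = 0.00565 and 0.0304, limma). With each array left out in turn, the adjusted p of Chrna1 was 0.0175 to 0.0421. That of Sln was 0.00156 to 0.119, and its call was lost without control 1 or any 1 of the knockouts. At an unadjusted p under 0.05, 6 were higher, 2 lower and 8 did not pass, against 3.93% higher and 4.12% lower of all genes. The median of the 16 was 0.26, and that of all genes −0.0003. The 8 were Chrne (0.33), Runx1 (0.31), Hdac4 (0.22), Myog (0.17), Ncam1 (−0.03), Chrng (−0.10), Myh8 (−0.16) and Dach2 (−0.27). Of these, Chrng and Dach2 lay below background. Chrna1 lay at 8.77, 8.65 and 8.57 in controls and 10.45, 10.15 and 10.13 in knockouts, and Kcnn3's difference of 0.71 was smaller than its 1.58. The differences of Chrnb1 and of the synaptic kinase Musk, 0.77 and 0.75, were nearer to that of Kcnn3, and neither was called (adjusted p = 0.196 and 0.326). The 2 lower genes that passed were Scn3b, a sodium channel beta subunit, and Myh3, embryonic myosin. Their knockout means, 5.74 and 5.79, lay below background, so they were at least 1.44-fold and 1.72-fold lower.

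Other genes of fibre excitability, a list drawn up with earlier results known, gave values in both directions. Of 17 listed, 12 were measured, of which 1 was higher and 5 lower at an unadjusted p under 0.05 (3.93% and 4.12% of all genes), 6 did not pass and 0 were called. Their median was −0.16, against −0.0003 for all genes. The lower genes included Cacna2d1 (−0.46) and Cacna1s (−0.31), subunits of the calcium channel of the T-tubule. The others were the sodium channel subunits Scn3b (−0.64) and Scn4b (−0.26), and the sodium pump subunit Atp1b2 (−0.38). Scn3b, whose knockout mean lay below background, was counted in the denervation list too. The higher gene was Atp1b1 (0.67), with controls at 10.72, 11.75 and 11.40 and knockouts at 11.92, 12.17 and 11.81. Clcn1, the chloride channel of the fibre membrane, had a difference of −0.12 (unadjusted p = 0.327).

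Genes that anchor channels or set their turnover had 4 of 12 measured members higher and 0 lower at an unadjusted p under 0.05, against 3.93% and 4.12% of all genes, with a median of −0.02 and 0 called. They were the syntrophin Sntb1 (0.59), Ank2 (0.46), the Z-disc protein Actn2 (0.43) and the ubiquitin ligase Nedd4l (0.31). Of 10 partner subunits without a Kcn symbol, 2 were lower (Lrrc38 and Amigo1, a partner of Kv2 channels, −0.42 each), 8 did not pass and 0 were called, with a median of −0.09, beside 3.93% and 4.12% of all genes.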

How the data were processed

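RNA of 6 muscles was labelled as biotinylated cRNA for Affymetrix arrays, per the labels' protocols. The authors deposited log2 summaries of 41345 probe sets per array, which they made with RMA, oligo and limma, per the submitters' processing notes. No version or genome build is given in the sources used here. RMA equalises the arrays' distributions and compresses differences of dim genes. Probe sets were named through GEO's platform annotation (23521 with 1 symbol, 1814 with several, 16010 with none), and all 89 members' gene identifiers were found in RefSeq GRCm38.p6. Of the members, 7 had more than 1 probe set.

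Groups were compared with limma 3.58.1 (R 4.3.3; lmFit, eBayes, group means, two-sided, Benjamini-Hochberg over all 22180 genes, no filter). Simulated data used normal noise at the fitted variances, with 200 of 22180 genes changed. There the fit recovered 55.5% of 1.5-fold and 97.5% of 2-fold changes, and 6.27% of calls were false. The recovered shares may be too high for these arrays, since 21 genes were called here and more changed genes ease the adjusted threshold. The number of arrays limits the precision. Plots used matplotlib 3.10.9.

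Members, lists, markers and background were chosen with earlier results of these data known. Genes given in full were Kcnn3, members above background with an unadjusted p under 0.05, and 17 channel genes known from muscle. Listed genes without a probe set of their own were not analysed here. Other members are named as the values of a count or as relatives of those. Alternatives were other scalings, probe set rules, filters, variance priors, array weights, a replicate block and leaving out each array.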

Additional observations from a re-analysis of the deposited data

Results flagged for a closer look

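A probe set that the annotation assigns to both Kcnj13, an inward rectifier, and its overlapping neighbour Gigyf2 was outside the comparison, because it has more than 1 symbol. Controls 1 to 3 lay at 4.96, 5.22 and 5.19 and knockouts 1 to 3 at 5.57, 5.32 and 5.44, so every knockout lay above every control. The difference was 0.32 (unadjusted p = 0.0325, adjusted p = 0.753, limma over all 41345 probe sets). Both means, 5.12 and 5.45, lay below background. The other 3 probe sets with a Kcn symbol among several (Kcnk3 on 2, Kcnmb4 on 1) had differences of −0.08 to −0.01.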

How the results depend on the processing

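No member was called in any of the 14 alternatives. Kcnn3 had adjusted p from 0.0620 (without knockout 3) to 0.548 (without knockout 2, limma) and differences of 0.58 to 0.90. It was higher in all of them, but its groups do not overlap, so leaving out an array could not turn its sign. Members at an unadjusted p under 0.05 numbered 8 to 12. With a replicate block there were 9, 4 higher and 5 lower, and the adjusted p of Kcnn3 was 0.270 (limma). The block cannot change its difference of 0.71, since every block holds both groups equally. Deviations from the group means correlated across genes at 0.06, 0.31 and −0.14 between same-numbered arrays. Between arrays of unlike number the correlations ran from −0.29 to 0.20. With 3 arrays a group, these values cannot settle whether the numbers pair the mice. Members above background numbered 74 and 16 at the 90th and 99th percentile. Changes of sign were checked only for the 19 measured genes given in full, not for the other members. Leaving out 1 array turned the sign of 5 of the 19, all with small differences. The ranges were −0.19 to 0.018 for Kcnab2, −0.26 to 0.021 for Kcnj12 and −0.040 to 0.24 for Kcne3. For Kcnn4 the range was −0.17 to 0.071, and for Kcna5 −0.086 to 0.058. The cause was not tested. Signal near background limits the 50 dim members.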
